A study of Mus musculus with 6 samples.

Results

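The respiratory chain genes of the mouse nuclear genome were followed in embryonic stem (ES) cells sorted by a fluorescent reporter called 2C::tomato. Members were all genes whose symbol begins with Nduf, Sdha, Sdhb, Sdhc, Sdhd, Uqcr, Cox4, Cox5, Cox6, Cox7, Cox8 or Atp5 and that had a probeset of their own, which gave 93 of the 19938 genes measured. By prefix, 43 belonged to complex I, 8 to complex II, 8 to complex III, 17 to complex IV and 17 to complex V. The prefixes also take in 11 assembly factors, 7 named Ndufaf and 4 named Sdhaf, which help to build a complex without staying in it.

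The study compared 3 arrays of reporter-positive with 3 arrays of reporter-negative ES cells, whose titles mark all 6 as wild type. As published, tomato is made from a retroviral (MERVL) promoter that is active in the early embryo. The cells grew on gelatin and were sorted by fluorescence. Their protocol names vehicle or 4-hydroxytamoxifen (which deletes Kdm1a) and does not say which of these the 6 samples received, nor whether the line is a clone.

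The respiratory chain passes electrons from NADH (complex I) and succinate (complex II) through ubiquinone to complex III, and through cytochrome c to complex IV, where oxygen is reduced. Complexes I, III and IV pump protons across the inner mitochondrial membrane, and complex V, the ATP synthase, uses the gradient to make ATP. Complexes I, III, IV and V are partly encoded in mitochondrial DNA, while the genes followed here are nuclear. Some complex IV subunits exist as a general form and a form restricted to muscle, lung or testis.

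Arrays correlated across genes at r between 0.969 and 0.995, and none duplicated another. The 9 measured markers of the two-cell-like state averaged log2 7.10 to 11.15 in positive arrays, highest in array 2, and 5.34 to 5.62 in negative arrays. The 10 ES cell markers (Pou5f1, Nanog, Sox2 and others) averaged 11.76 to 12.16 in positive and 11.97 to 12.21 in negative arrays. The 11 fibroblast markers averaged 7.25 to 8.02 in positive and 7.61 to 8.08 in negative arrays. The 8 primitive endoderm markers averaged 7.08 to 7.53 in positive and 7.52 to 7.69 in negative arrays. The 8 trophoblast markers averaged 8.44 to 9.46 in positive and 8.59 to 9.24 in negative arrays. The ES cell average was lowest in array 2 of each group, at 11.76 in positive and 11.97 in negative arrays. Nanog, Dppa5a and Tdgf1 were instead highest in positive array 2. The fibroblast and trophoblast averages were highest in array 2 of each group. The largest rises there were those of Acta2, Tagln, Krt7, Krt8 and Krt18. Other markers went the other way: Col3a1 and Elf5 were lowest in array 2 of each group, and Col1a1 in negative array 2. The part of fibroblast, primitive endoderm and trophoblast cells in the results below was not tested. Same-numbered arrays went together. The deviation of an array from its group mean correlated with that of the same-numbered array of the other group. The r was 0.55, 0.55 and 0.46 for numbers 1, 2 and 3. Deviations within a group cancel out, so these 3 values are not independent. In sorted bulk cells, a change in RNA per cell and a change in the share of cells that make it cannot be told apart.

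Respiratory chain genes differed little between positive and negative cells. Over the 93 members the median log2 difference, positive minus negative, was -0.028, beside -0.043 over all genes, and 40 members were higher and 53 lower (57.0% lower, beside 60.2% of all genes). With 1 array left out the median of the members ran from -0.053 to 0.010, and with array weights it was -0.0025, so its sign is not settled. The median size of the difference, sign aside, was 0.080, beside 0.119 over all genes. None of the 93 passed the test in either direction: limma gave 0 members an adjusted p under 0.05 (background 0.00% higher and 0.00% lower of 19938 genes), with a smallest adjusted p of 0.910. At an unadjusted limma p under 0.05, 1 member was higher (background 1.95%) and 1 lower (background 2.46%). With the replicate number as a block these became 6 higher (background 5.40%) and 1 lower (background 6.61%), and the smallest limma adjusted p among members was 0.396. No member differed by 2-fold in either direction (background 0.512% higher and 0.0150% lower). The largest differences were those of Cox6b2 and Sdhaf3, which were higher, and of Ndufa4l2, which was lower.

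The precision limits how much of a difference could have gone unseen. The limma standard error (SE) of a member's difference had a median of 0.13, with a range of 0.096 to 0.39. These SEs come from the main fit, which sets no pairs, so spread shared by same-numbered arrays is part of them. By that fit, the 95% interval of the difference lay within 2-fold either way for 92 of the 93 members, Cox7a1 being the exception. For 79 it lay within 1.5-fold. Fitting replicate numbers as blocks lowered the SE of Cox7a1 from 0.39 to 0.0995. Not every SE fell: that of Ndufaf6 was 0.1627 in the main fit and 0.1638 in the blocked one. The mean of a same-numbered pair ranged by a median of 0.24 over the 3 replicate numbers, beside 0.27 over all genes.

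**Figure D1:**
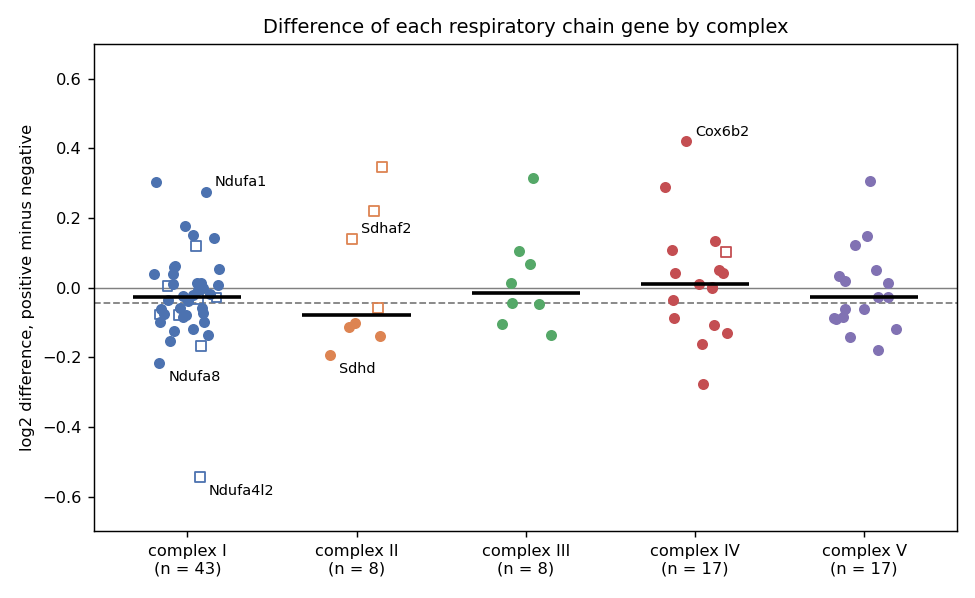
Log2 difference, positive minus negative, of each of the 93 genes (points) by complex. Open squares are assembly factors, Ndufa4l2 and Cox7a2l, filled points are subunits, black bars are medians and the dashed line is the median of all genes. The medians of the complexes lie between -0.080 and 0.0099, and only the 6 labelled genes have groups that do not overlap.

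The complexes were compared over the 3 same-numbered pairs. Complex IV had a median difference of 0.0099, complex III of -0.014, complex I of -0.028, complex V of -0.028 and complex II of -0.080. In pair 1 the medians ran in the order II, I, III, IV, V, between 0.056 and -0.036. In pair 2 the order was IV, III, V, I, II, and the medians spread more widely, from 0.058 for complex IV through -0.021, -0.12 and -0.13 to -0.16 for complex II. Pair 3 put all 5 between 0.053 and 0.028, in the order IV, I, III, V, II. The order thus changed with the pair: complex II was at the top in pair 1 and at the bottom in pairs 2 and 3. Its place in pair 1 depended on the 4 Sdhaf assembly factors, whose median there was 0.22. With subunits only, and Ndufa4 counted in complex IV, complex II was the lowest in all 3 pairs. Its medians were then -0.088, -0.34 and -0.024 in pairs 1, 2 and 3. The SD over pairs was 0.094 for complex I, 0.12 for complex II, 0.032 for complex III, 0.050 for complex IV and 0.078 for complex V, beside 0.090 between the highest and the lowest complex. With array weights the medians of complexes I to V were -0.010, 0.018, 0.033, -0.042 and 0.0092, which put complex IV at the bottom. Leaving out 1 array turned the sign of each: the ranges were -0.070 to 0.014 for complex I, -0.12 to 0.034 for II, -0.054 to 0.039 for III, -0.029 to 0.080 for IV and -0.0995 to 0.036 for V. The medians are given as a description without a test.

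**Figure D2:**
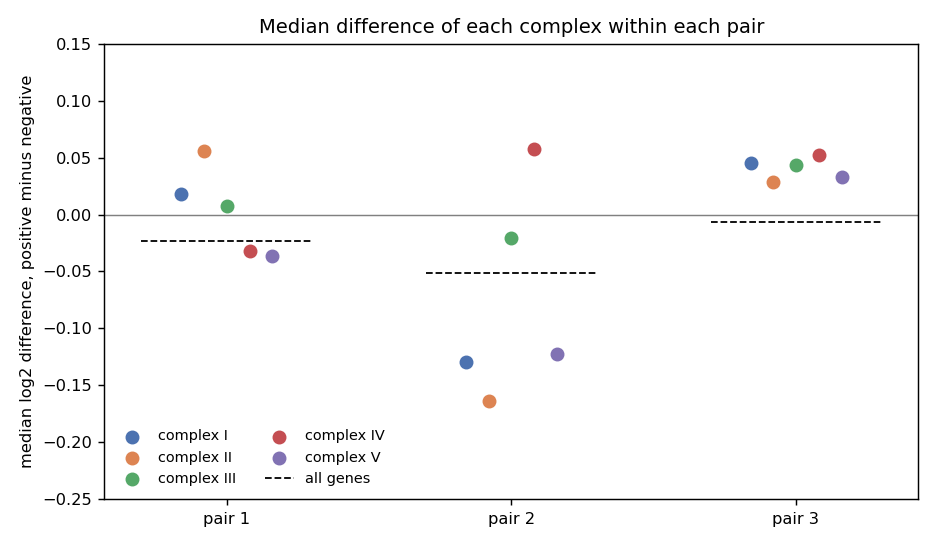
Median log2 difference, positive minus negative, of the genes of each complex within each same-numbered pair (points), with the median of all genes as a dashed line. In pair 3 the 5 complexes lie between 0.028 and 0.053, while pair 2 spreads them from -0.16 to 0.058.

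The pairs differed in how many members were lower. In pair 2, 57 of the 93 members (61.3%) were lower in the positive array, close to the 59.1% of all genes. It was 48 members (51.6%) in pair 1, beside 54.3% of all genes, and 32 members (34.4%) in pair 3, beside 51.4% of all genes. By complex, pair 2 had 31 of 43 genes lower in complex I, 6 of 8 in complex II, 5 of 8 in complex III, 5 of 17 in complex IV and 10 of 17 in complex V. All 6 measured nuclear core subunits of complex I and all 4 subunits of complex II were among them.

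Differences that kept their sign in all 3 pairs were found for 15 members that were higher (16.1%, background 15.1%) and 15 that were lower (16.1%, background 23.7%). Groups without overlap were rarer: Cox6b2, Ndufa1 and Sdhaf2 had the lowest positive array above the highest negative one (3.23%, background 4.08%), and Ndufa4l2, Ndufa8 and Sdhd had them all below (3.23%, background 7.15%). Both shares lay under their background. These shares depended on the scaling. After centring each array on its median, 2 were higher (2.15%, against 3.87% of all genes) and 5 lower (5.38%, against 4.62%). After a second quantile normalization, 2 were higher (2.15%, against 4.96%) and 8 lower (8.60%, against 6.47%), so in both the lower share lay above that of all genes.

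Dropping an array leaves fewer to overlap, and the share of all genes grew with it. Without positive array 1, 8 members were higher (8.60%, against 6.27% of all genes) and 7 lower (7.53%, against 12.1%). Without positive array 2 there were 4 higher (4.30%, against 10.9%) and 5 lower (5.38%, against 12.9%), and without positive array 3 there were 9 higher (9.68%, against 7.22%) and 10 lower (10.8%, against 13.1%). Without negative array 1 there were 5 higher (5.38%, against 7.14%) and 9 lower (9.68%, against 9.95%). Without negative array 2 there were 10 higher (10.8%, against 11.0%) and 9 lower (9.68%, against 22.1%), and without negative array 3 there were 5 higher (5.38%, against 6.03%) and 8 lower (8.60%, against 9.96%). Without both arrays of replicate 2 there were 13 higher (14.0%, against 19.2%) and 11 lower (11.8%, against 28.2%). The higher share thus passed that of all genes without positive array 1 or 3, and the lower share in none of these 7 settings.

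**Figure D3:**
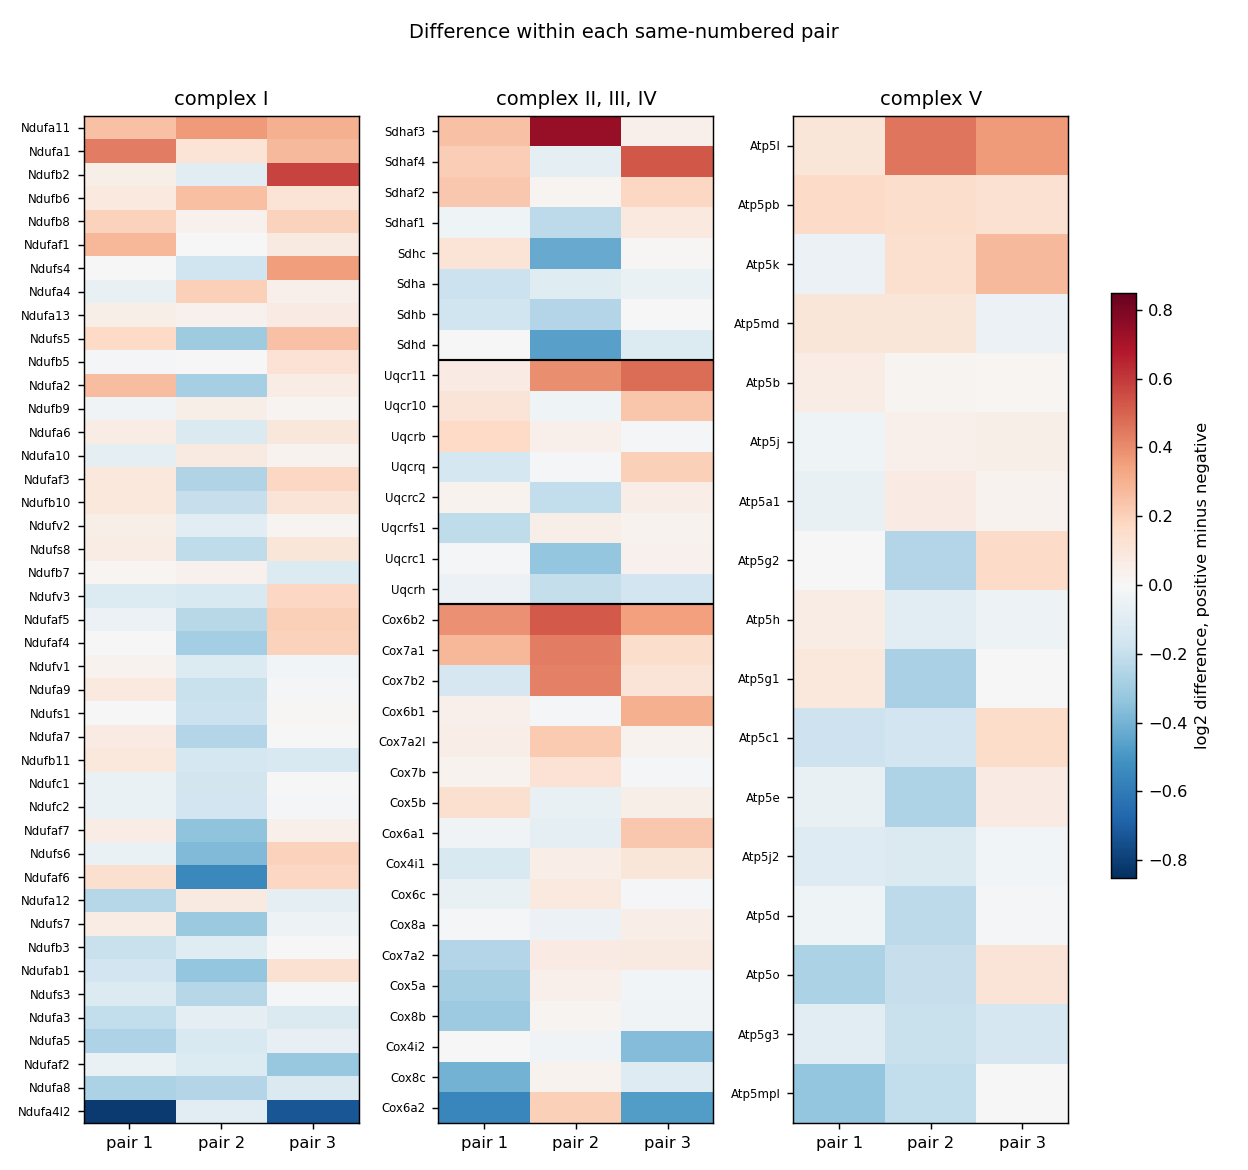
Log2 difference within each same-numbered pair (columns) for each of the 93 genes (rows), ordered by mean difference within each complex. Red is higher and blue lower in the positive array, and the second column shows the 31 of 43 complex I genes that are lower in pair 2.

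Complex I takes electrons from NADH, with a core that carries the flavin and the iron-sulphur clusters and many accessory subunits around it. Its 6 measured nuclear core subunits (Ndufs1, Ndufs3, Ndufs7, Ndufs8, Ndufv1 and Ndufv2) differed by -0.12 to -0.0069, a median of -0.047. By pair the median was 0.038 for pair 1, -0.20 in pair 2 and -0.0023 in pair 3. The 29 accessory subunits, with Ndufa4 counted here by its prefix, had 14 higher and 15 lower, with differences between -0.22 and 0.30 and a median size of 0.064. The 7 Ndufaf assembly factors had a median of -0.032, made of 0.064, -0.26 and 0.17 in pairs 1, 2 and 3.

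Ndufa11, an accessory subunit of the membrane arm, was at log2 10.86, 11.06 and 11.29 in positive arrays 1, 2 and 3, against 10.61, 10.70 and 10.99 in negative arrays 1, 2 and 3. Positive array 1 lay below negative array 3, so the groups overlapped, while each positive array was above its own pair partner. The difference was 0.30 (SE 0.16, limma adjusted p = 0.910), with 0.25, 0.36 and 0.30 in the 3 pairs, 0.19 without positive array 3 and 0.10 with array weights. A further probeset for Ndufa11 differed by 0.19. Ndufa1, a small X-linked accessory subunit, was at 8.20, 8.21 and 8.39 in positive arrays, against 7.77, 8.09 and 8.12 in negative arrays. Its groups did not overlap, and negative array 1 was low. The difference was 0.28 (SE 0.13, limma adjusted p = 0.910), and 0.16 without negative array 1.

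Ndufa8, an accessory subunit on the intermembrane-space side, was at 10.49, 10.51 and 10.57 in positive arrays, against 10.76, 10.76 and 10.70 in negative arrays. The groups did not overlap, with a gap of 0.12 between the nearest arrays. Its level averaged 10.52 ± 0.05 in positive and 10.74 ± 0.04 in negative cells (SD, n = 3 each). The difference of -0.22 (SE 0.098, limma adjusted p = 0.910) stayed between -0.24 and -0.20 whichever array was left out.

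Ndufa4l2, a paralogue of Ndufa4 that is induced when oxygen is low, had the largest difference of all members. It was at 6.93, 6.96 and 6.81 in positive arrays, against 7.74, 7.05 and 7.54 in negative arrays. Negative arrays 1 and 3 were high, and negative array 2 lay just above the positive arrays. The probeset was dim, with a mean of 7.17 over all arrays, where the array medians over all genes were 7.565 to 7.684. The difference of Ndufa4l2 was -0.54 (SE 0.19, 95% interval -0.98 to -0.11), a level 1.46-fold lower in positive cells, with a limma adjusted p of 0.910. In pairs 1, 2 and 3 it was -0.82, -0.087 and -0.73. Ndufa4 itself, which was first assigned to complex I and is now counted in complex IV, differed by 0.059 (SE 0.15), at 9.91, 10.39 and 10.04 in positive arrays against 9.98, 10.19 and 10.00 in negative arrays.

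Complex II, succinate dehydrogenase, is the only complex of the chain that is wholly encoded in the nucleus, and it also works in the tricarboxylic acid cycle. Its 4 subunits were all lower in positive cells, with a median of -0.13 and values of -0.088, -0.34 and -0.024 in pairs 1, 2 and 3. Sdhd, a membrane anchor, was at 10.65, 10.49 and 10.63 in positive arrays, against 10.65, 10.95 and 10.75 in negative arrays. The groups were apart by only 0.0033, and positive array 2 was the lowest and negative array 2 the highest. Its difference was -0.19 (SE 0.12, limma adjusted p = 0.910), and -0.11 without negative array 2. The flavoprotein Sdha differed by -0.11 (SE 0.12; -0.18 to -0.059 with 1 array left out), the iron-sulphur subunit Sdhb by -0.14 (SE 0.12; -0.20 to -0.078) and the second anchor Sdhc by -0.10 (SE 0.14). Sdhc was 0.12 and 0.012 higher in the positive array of pairs 1 and 3 and -0.43 in pair 2, and its sign turned without negative array 2, at 0.040.

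Of the 4 complex II assembly factors, 3 were higher and 1 lower, with a median of 0.18. Sdhaf2, which places the flavin in Sdha, was at 9.41, 9.40 and 9.52 in positive arrays, against 9.18, 9.38 and 9.34 in negative arrays. Its groups were 0.022 apart, and the difference was 0.14 (SE 0.11, limma adjusted p = 0.915), or 0.080 without negative array 1. Sdhaf3, which assists the iron-sulphur subunit, was at 9.42, 10.08 and 9.32 in positive arrays, against 9.17, 9.34 and 9.27 in negative arrays. Positive array 2 alone was high, and the difference of 0.35 (SE 0.21, limma adjusted p = 0.910) was 0.11 without it. The 2 probesets of Sdhaf4 disagreed, at 0.22 and -0.19, so its direction is uncertain. The count of 3 higher and the median of 0.18 use the probeset at 0.22, so they are uncertain too.

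Complex III hands electrons from ubiquinol to cytochrome c. Its core proteins Uqcrc1 and Uqcrc2 and the Rieske iron-sulphur protein Uqcrfs1 differed by -0.10 to -0.043. The 5 small subunits had 4 higher, with a median of 0.067. Uqcr11, the smallest of them, was at 10.77, 11.40 and 11.05 in positive arrays, against 10.70, 11.00 and 10.57 in negative arrays. Array 2 was the highest in each group, and positive array 1 lay below negative array 2. The difference was 0.31 (SE 0.19, limma adjusted p = 0.910), 0.15 without positive array 2, and 0.38 for a second probeset. Uqcrh, the hinge protein next to cytochrome c1, differed by -0.14 (SE 0.14), or -0.053 with negative array 3 left out.

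Complex IV, cytochrome c oxidase, has isoform pairs that can be set side by side. The 9 general isoforms stayed between -0.088 (Cox5a) and 0.11 (Cox6b1), with a median of 0.010. Cox8a, at 12.51, 12.47 and 12.54 in positive arrays and 12.52, 12.52 and 12.48 in negative arrays, differed by -0.0013 (SE 0.096, 95% interval -0.23 to 0.22). Among the 7 isoforms restricted to certain tissues the range was -0.28 to 0.42.

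Cox6b2, the testis form of a subunit that faces the intermembrane space, had the largest difference upward of all members. Its log2 level was 9.86, 10.17 and 10.07 in positive arrays, against 9.47, 9.65 and 9.72 in negative arrays. Every positive array lay above every negative array, by at least 0.14. The level averaged 10.03 ± 0.16 in positive and 9.61 ± 0.13 in negative cells (SD, n = 3 each), a difference of 0.42 (SE 0.13, 95% interval 0.11 to 0.73), or 1.34-fold. It did not pass over all genes (limma adjusted p = 0.910, or 0.396 once replicate numbers entered as a block), and was 0.39, 0.52 and 0.35 in pairs 1, 2 and 3. With array weights it was 0.27. The general form Cox6b1 was at 11.72, 11.92 and 11.84 in positive arrays, against 11.68, 11.93 and 11.54 in negative arrays, and differed by 0.11 (SE 0.14), with 0.021 to 0.22 when 1 array was left out.

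The 8 markers of testicular germ cells averaged 7.36, 7.35 and 7.00 in positive arrays 1, 2 and 3, against 7.00, 6.71 and 6.71 in negative arrays 1, 2 and 3. Positive array 3 and negative array 1 lay next to each other. Of these, 4 were higher and 4 lower. Tex101, Taf7l and Slc25a31 were higher without overlap, by 0.93, 1.55 and 1.36, while the late sperm genes Tnp1 and Prm1 differed by -0.20 and -0.19. Their part in the Cox6b2 value was not tested.

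The other testis forms had smaller differences, but in every array they lay below the array medians over all genes (7.565 to 7.684). Differences of such dim probesets can be understated, so these are not set against that of Cox6b2. Cox7b2, at 5.44 to 5.62 in positive and 5.18 to 5.58 in negative arrays, differed by 0.13 (SE 0.14), and by -0.014 without both arrays of replicate 2. Cox8c, at 7.08 to 7.14 in positive and 7.08 to 7.54 in negative arrays, differed by -0.16 (SE 0.14), or -0.027 with negative array 1 left out. Of the muscle forms, Cox6a2 differed by -0.28 (SE 0.22) and Cox8b by -0.11 (SE 0.12), and the lung form Cox4i2 by -0.13 (SE 0.18). With 1 array left out, Cox8b ran from -0.16 to -0.016 and Cox4i2 from -0.27 to -0.044. Cox8b was dim too, at 6.07 to 6.15 in positive and 6.10 to 6.39 in negative arrays. Cox6a2 was at 7.67, 7.61 and 7.33 in positive arrays, against 8.22, 7.41 and 7.80 in negative arrays, with pairs at -0.56, 0.20 and -0.47. Negative array 1 was the highest, and without it the difference was -0.069.

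Cox7a1, the heart and skeletal muscle form of subunit VIIa, varied most with the replicate. It was at 8.70, 9.92 and 8.88 in positive arrays, against 8.42, 9.49 and 8.73 in negative arrays. Array 2 was highest in each group, and its replicate means ranged by 1.15. The difference was 0.29 (SE 0.39, limma adjusted p = 0.944), with 0.28, 0.43 and 0.15 in the pairs and -0.091 without positive array 2. Once replicate numbers entered as a block, its SE was 0.0995 and its limma adjusted p was 0.401. The 8 striated muscle markers averaged 7.07 to 7.19 in positive and 7.16 to 7.33 in negative arrays. Their average was highest in array 2 of each group too, at 7.19 in positive and 7.33 in negative cells. Of these markers only Acta1 was itself highest in array 2 of both groups, at 8.91 in positive and 9.56 in negative cells. Myh7, Myl2, Ckm and Mb were highest there in neither group. The part of muscle cells in the Cox7a1 values was not tested. The general form Cox7a2 differed by -0.034 (SE 0.14), and Cox7a2l, which joins complexes into supercomplexes, by 0.10 (SE 0.21), or -0.091 without positive array 2.

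**Figure D4:**
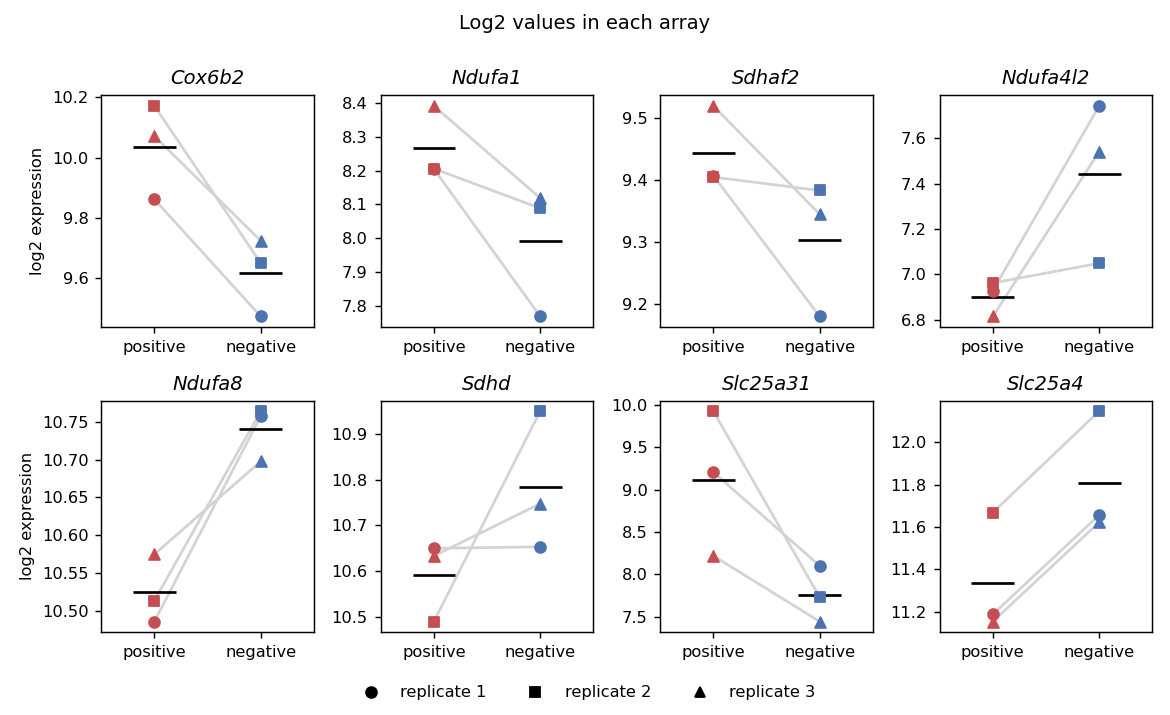
Log2 values in each array for the 6 respiratory chain genes whose groups do not overlap and for the carriers Slc25a31 and Slc25a4. Symbols give the replicate number, grey lines join same-numbered arrays and black bars are means of 3. Each panel has its own axis, which does not start at 0. Cox6b2 is higher in every positive array, and the groups of Sdhd and Sdhaf2 nearly touch.

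Complex V joins a soluble F1 head to a rotor and a membrane part. The 5 subunits of its F1 head and central stalk, among them the catalytic Atp5b and its partner Atp5a1, lay between -0.090 (Atp5d) and 0.035. The 3 genes for the same c-ring protein, Atp5g1, Atp5g2 and Atp5g3, differed by -0.060 (SE 0.15), -0.028 (SE 0.12) and -0.14 (SE 0.10). Within pairs 1, 2 and 3 Atp5g3 differed by -0.093, -0.19 and -0.14. In the peripheral stalk, the brightest probeset of Atp5pb was higher in each pair by 0.16, 0.15 and 0.13. Its difference was 0.15 (SE 0.11, limma adjusted p = 0.910), or 0.094 as the mean of the gene's probesets. The other Atp5pb probeset differed by only 0.039 and was lower in positive array 1, at 10.93 against 10.95 in negative array 1.

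Atp5l, subunit g of the membrane part, was at 9.73, 10.66 and 10.35 in positive arrays, against 9.63, 10.21 and 9.98 in negative arrays. Array 2 was the highest and array 1 the lowest in each group, and the groups overlapped. The difference was 0.31 (SE 0.26, limma adjusted p = 0.917), with 0.10, 0.46 and 0.37 in the pairs, and 0.098 without positive array 2, 0.15 without negative array 1 or 0.57 without positive array 1. Its 6 probesets gave 0.24 to 0.35. Probesets of one gene are not independent. The largest difference downward among the small membrane subunits was that of Atp5mpl, at -0.18 (SE 0.11).

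Replicate 2 was the highest of both groups at close to the share of all genes, and the lowest below it. There were 21 members highest in array 2 of each group (22.6%, against 22.0% of all genes) and 15 lowest there (16.1%, against 29.6% of all genes). Atp5l, Uqcr11, Cox7a1, Cox7a2l, Cox6a1 and Cox6b1 were among the highest, and Ndufaf4, Uqcrc1, Ndufs3 and Atp5g1 among the lowest.

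Promoters are shown for Cox6b2 with its general partner Cox6b1, since Cox6b2 had the largest difference upward, and for Ndufa11 and Ndufa8, accessory subunits that differed in opposite directions. Each is the 250 bases before the annotated start, 5′ to 3′ on the gene's strand, from RefSeq with build GRCm38.p6. Capitals mark the motifs searched on both strands: GCATGCGC (NRF1-type), CCGGAAG (ETS-type, as bound by GABP), CCAAT and the E-box CACGTG. NRF1 and GABP are known regulators of respiratory chain genes.
Cox6b2: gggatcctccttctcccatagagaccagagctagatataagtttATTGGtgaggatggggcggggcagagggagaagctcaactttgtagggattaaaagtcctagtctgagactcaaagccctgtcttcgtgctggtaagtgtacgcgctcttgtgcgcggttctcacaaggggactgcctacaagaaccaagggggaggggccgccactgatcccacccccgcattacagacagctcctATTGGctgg
Cox6b1: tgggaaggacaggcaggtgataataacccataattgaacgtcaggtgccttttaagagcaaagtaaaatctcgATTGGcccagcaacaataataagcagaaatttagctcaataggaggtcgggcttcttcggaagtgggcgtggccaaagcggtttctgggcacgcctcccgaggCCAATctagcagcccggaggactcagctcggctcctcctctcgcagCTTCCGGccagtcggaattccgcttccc
Ndufa11: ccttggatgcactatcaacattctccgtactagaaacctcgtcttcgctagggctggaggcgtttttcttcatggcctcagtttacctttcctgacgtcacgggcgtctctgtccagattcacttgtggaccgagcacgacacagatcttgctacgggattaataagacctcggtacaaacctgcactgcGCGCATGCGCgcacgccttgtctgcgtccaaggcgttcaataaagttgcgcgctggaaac
Ndufa8: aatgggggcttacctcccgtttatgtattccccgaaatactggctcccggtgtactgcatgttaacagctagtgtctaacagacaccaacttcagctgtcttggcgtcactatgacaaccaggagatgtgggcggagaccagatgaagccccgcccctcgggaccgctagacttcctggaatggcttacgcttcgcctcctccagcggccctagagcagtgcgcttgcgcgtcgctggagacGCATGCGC
The windows lie at chr7:4753095-4753344 (minus strand), chr7:30626115-30626364 (minus), chr17:56717512-56717761 (plus) and chr2:36049339-36049588 (minus). Cox6b2 held 2 CCAAT boxes and none of the other motifs, while Cox6b1 held 2 CCAAT boxes and 1 ETS-type motif. Ndufa11 and Ndufa8 each held the NRF1-type motif, in Ndufa11 as 2 overlapping matches, with Ndufa11 at 0.30 and Ndufa8 at -0.22 between positive and negative cells. Over the 82 promoters listed for 77 of the members, the NRF1-type motif was in 9 (11.0%), against 2.26% of all 32851 promoters of the same length. The ETS-type motif was in 15 (18.3%, against 6.91%), CCAAT in 34 (41.5%, against 33.8%) and the E-box in 7 (8.54%, against 6.02%). A match is only a run of letters and does not show binding.

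Genes that work with the chain were taken from lists of other pathway members, none of which had a member past the limma test in either direction. Of 7 genes for cytochrome c, its reductase partner, the ATPase inhibitor and related factors, 3 were higher and 4 lower. Cycs, cytochrome c, was at 13.01, 12.98 and 12.83 in positive arrays, against 12.84, 12.70 and 12.53 in negative arrays, a difference of 0.25 (SE 0.12, limma adjusted p = 0.910), with positive array 3 just below negative array 1. The inhibitor Atpif1 differed by -0.092 (SE 0.13). Of the mitochondrially encoded subunits, 2 had a probeset: ND3 of complex I differed by 0.12 (SE 0.15; 0.0021 to 0.20 with 1 array left out) and COX2 of complex IV by -0.0063 (SE 0.17).

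Of 37 further assembly factors, 9 were higher and 28 lower, with a median of -0.049, where 60.2% of all genes were lower. Tmem126b, a complex I assembly factor, was at 8.96, 9.03 and 8.81 in positive arrays, against 8.49, 8.79 and 8.50 in negative arrays, without overlap, with a difference of 0.34 (SE 0.13, limma adjusted p = 0.910). The complex IV factor Cox20 differed by -0.26 (SE 0.15), or -0.13 without negative array 3. In pair 2, 31 of the 37 were lower, beside 59.1% of all genes.

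The tricarboxylic acid cycle had 3 of 13 genes higher and 10 lower, with a median of -0.051. Fh1, fumarase, which takes the product of complex II, was at 10.73, 10.47 and 10.70 in positive arrays, against 10.84, 10.94 and 10.79 in negative arrays. It was lower without overlap, by -0.22 (SE 0.12, limma adjusted p = 0.910), and by -0.14 without positive array 2. Sucla2, a subunit of succinyl-CoA ligase, differed by 0.17 (SE 0.13), or 0.091 without positive array 1. Coenzyme Q synthesis had 5 of 12 higher, between Coq10a at -0.15 (SE 0.19) and Pdss2 at 0.15 (SE 0.12), and neither held its size: Coq10a was at 0.069 without negative array 2 and Pdss2 at 0.066 without positive array 3.

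Regulators of respiratory genes had 9 of 13 higher and a median of 0.036. Gabpb2, a subunit of GABP, was higher without overlap by 0.25 (SE 0.14), or 0.12 without negative array 2, and the nuclear receptor Esrra differed by -0.19 (SE 0.12), or -0.10 without positive array 1. Nrf1 differed by 0.17 (SE 0.13) and Tfam, the packaging factor of mitochondrial DNA, by -0.051 (SE 0.13). Among 77 mitochondrial ribosomal proteins 41 were higher and 36 lower, with a median of 0.0085. In pair 2, 59 of these 77 were lower, a larger share than the 59.1% of all genes. The largest differences of ribosomal proteins were those of Mrps17, at 0.28 (SE 0.17), and Mrps12, at -0.27 (SE 0.20). They were 0.14 without negative array 1 and -0.10 without positive array 1.

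Carriers bring ADP to complex V and ATP out of the matrix, and their isoforms differed from one another in direction. Slc25a31, which serves germ cells, was at 9.21, 9.93 and 8.22 in positive arrays, against 8.10, 7.73 and 7.44 in negative arrays. Every positive array was above every negative array, and the difference was 1.36 (SE 0.41, limma adjusted p = 0.910). Slc25a4, the carrier of heart and muscle, was at 11.19, 11.67 and 11.15 in positive arrays, against 11.66, 12.15 and 11.62 in negative arrays. Array 2 was highest in each group and the groups overlapped, but the pairs differed by -0.47, -0.48 and -0.47. That gave -0.47 (SE 0.20, limma adjusted p = 0.910, or 0.396 once replicate numbers entered as a block), and -0.30 without negative array 2. The SE of 0.20 includes the spread between replicate numbers. The general carrier Slc25a5 differed by -0.064 (SE 0.10). The phosphate carrier Slc25a3 and the porins Vdac1, Vdac2 and Vdac3 differed by -0.16 to -0.10. The -0.16 was that of Vdac2 and lay mostly in pair 2, with -0.024, -0.44 and -0.017 in pairs 1, 2 and 3. Vdac3 was lower without overlap, by -0.14 (SE 0.096).

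Probesets that carry several symbols stood outside these counts. The 6 of them with a symbol that fits the prefixes gave 0.080 to 0.097 for Cox7c (with Gm12338), 0.0005 and 0.023 for Ndufb4 (with Ndufb4b) and 0.15 for Ndufs5 with its pseudogene.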

How the data were processed

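Arrays were made from 100 ng of total RNA per sample. Values are log2 expression, deposited by the authors with 1 column per array; per the submitters' processing notes they come from RMA in Affymetrix Expression Console, which corrects background, normalizes quantiles between arrays and summarises probesets. Neither versions nor a build were given in the sources used here. RMA draws dim probesets together, which can understate their differences, and quantile normalization removes a shift in total RNA. The number of arrays limits the precision.

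Of 35556 probesets, 21789 had 1 symbol in the platform annotation, 1621 several and 12146 none listed. The brightest probeset by mean over 6 arrays stood for a gene (999 genes had several; 18 members did, of which 4 had probesets of opposite sign). Symbols were checked by identifier against RefSeq (GRCm38.p6), and 0 changed. No dim gene was removed. A two-sided limma fit (version 3.58.1, lmFit then eBayes, R 4.3.3) set positive against negative arrays. P-values were adjusted by Benjamini-Hochberg across 19938 genes, with a threshold of 0.05. The fit was also run on simulated data with independent noise, which lack the deviations shared by same-numbered arrays. The changes added there were larger than that of any member. Groups and replicate numbers came from the titles, which do not say that replicates are separate cultures, so the p-values reflect the spread among these arrays, which may be technical. The main fit has no block. Same-numbered arrays deviated together (r = 0.55, 0.55 and 0.46), so the numbers were taken as pairs. This rests on the data, not on the labels. Deviations within a group cancel out, so these values of r are not independent. Whether each number by itself marks a pair was not tested.

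Members and lists were chosen with earlier results of these data known. The rule for naming took, per complex, up to 2 members each way with the largest difference of constant sign over pairs, listed isoform groups, the complex II subunits and the extremes of each pathway list (33 members and 16 other genes). Others were named after their values were seen. Alternatives were the replicate block, array weights, other scaling, a filter on dim genes, averaged probesets, subunits only and arrays left out.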

Additional observations from a re-analysis of the deposited data

How the results depend on the processing

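No member passed the limma test under any alternative run, the replicate block included, where the count stayed at 0 and no call changed; over all genes the smallest limma adjusted p was 0.067 with array weights. Of 140 alternative counts and medians, 117 stayed within 1.5 times the main count or within the spread between pairs. Some of the 140 could not move: the block leaves medians and overlap counts as they were, and array weights leave overlap counts. A turn of sign could also count as staying, as for complex II at 0.018 with array weights, so the 117 overstate the stability. The median of complex III was 0.033 and that of complex IV -0.042 with array weights. Members lower without overlap numbered 5 with median centring (5.38%, against 4.62% of all genes) and 8 with a second quantile normalization (8.60%, against 6.47%). Without both arrays of replicate 2, 13 members were higher and 11 lower without overlap, and the medians of complexes II and III were 0.044 and 0.034. Leaving out 1 array at a time gave 4 to 10 members higher and 5 to 10 lower without overlap, where 6.03% to 11.0% of all genes were higher and 9.95% to 22.1% lower, a median of -0.054 to 0.039 for complex III and of -0.029 to 0.080 for complex IV.

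Of 635 alternative values of named genes, 43 turned sign and 34 of the 49 genes never turned. The 635 include the values with the replicate block and those with the filter on dim genes, which equal the main ones and could not turn. With array weights the log2 differences that turned were -0.13 for Cox4i1, -0.016 for Cox7a2l, -0.042 for Cox7b, 0.029 for Cox8a, -0.010 for Ndufa4, 0.026 for Atp5g2, 0.034 for Sdhc, 0.069 for COX2 and 0.0072 for Coq10a. Without a change of sign, array weights gave -0.11 for Sdhd, 0.16 for Sdhaf3, -0.28 for Uqcrh, 0.075 for Atp5l and -0.11 for Fh1. A second quantile normalization gave -0.0010 for Cox4i1. Without both arrays of replicate 2 they were -0.014 for Cox4i1, -0.014 for Cox7b2, 0.023 for Cox8a, -0.011 for Ndufa4, 0.049 for Atp5g1, 0.084 for Atp5g2, 0.063 for Sdhc, 0.15 for COX2 and 0.044 for Coq10a. With 1 array left out, the range was -0.091 to 0.60 for Cox7a1, -0.098 to 0.12 for Cox4i1, -0.036 to 0.17 for Cox6a1, -0.13 to 0.089 for Cox7a2, -0.091 to 0.24 for Cox7a2l, -0.018 to 0.016 for Cox8a, -0.080 to 0.16 for Ndufa4, -0.15 to 0.083 for Atp5g1, -0.11 to 0.036 for Atp5g2, -0.18 to 0.040 for Sdhc, -0.15 to 0.016 for Atpif1, -0.13 to 0.18 for COX2 and -0.27 to 0.069 for Coq10a. The cause was not tested. The 3 arrays a group limit the precision.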
